A study of Mus musculus with 6 samples.

Results

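The genes described here encode the chondroitin sulfate proteoglycans and tenascins of neural tissue: the 4 lecticans Ncan, Bcan, Vcan and Acan, the link protein gene Hapln1, the membrane proteoglycan gene Cspg5, and the tenascin genes Tnc and Tnr. They were taken by symbol, 8 of the 24503 genes in the count table, and 6 of the 8 passed the filter on low counts that left 13683 genes for testing. The counts come from RNA-seq of primary mouse neural stem cells isolated from the cortex of embryos at E13.5, which were grown first as neurospheres and then on laminin, with FGF and EGF in the medium. Control cells were Phf2flox/flox, with no Cre named in their labels (WT, 3 libraries), and mutant cells carried the same floxed alleles with the Nestin-Cre transgene of the line B6.Cg-Tg(Nes-cre)1Kln/J (Nestin-Cre Tg, Phf2flox/flox; KO, 3 libraries). Floxed alleles were thus shared by both groups, while the Cre transgene, driven from the nestin gene's regulatory DNA in neural progenitors, is named for KO alone, so an effect of Cre and an effect of the deletion cannot be told apart. The sources used here do not give how many embryos stand behind a library. The comparison asks how transcript levels differ when Phf2, a histone H3 lysine 9 demethylase gene, is deleted in neural stem cells.

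Lecticans are large secreted proteins that carry chondroitin sulfate chains. Their amino-terminal domains bind hyaluronan, a long sugar polymer, and link proteins of the HAPLN family lock that bond, while their carboxy-terminal domains bind tenascins, so that the members together form the hyaluronan-based matrix of the brain. In the developing and adult nervous system this matrix is known for surrounding progenitors in the germinal zones, for limiting axon growth and, in its condensed form, for the perineuronal nets around mature neurons.

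Total counts ranged from 33413444 to 46890314 per library. Phf2 itself was at 109, 90.4 and 77.8 CPM (counts per 1e+06 counts of the library, scaled by TMM) in WT 1, 2 and 3 and at 56.3, 48.1 and 48.8 CPM in KO 1, 2 and 3. The 2 ranges did not overlap, and the gene counts also include reads outside the floxed part, whose extent the sources used here do not give. An antisense gene, Phf2os1, overlaps Phf2 in the annotation, and its reads cannot be told apart without the strand setting of the counting. By edgeR the Phf2 log2 fold change was −0.84 with the replicate number as a block (adjusted p = 0.000123). Without a block it was −0.85 and not called (adjusted p = 0.182). How complete the deletion was in the cells was not tested. The 8 markers of radial glia and neural stem cells, with Vim, Fabp7 and Nes at the highest mean levels, summed to 8039 to 9111 CPM, so the labelled cell type had its markers in every library. Single markers of this list differed by library number, as given below. Cdh5 of endothelium, Aif1 and C1qa of microglia and Dcn of fibroblasts had 0 counts in all 6 libraries. Other markers on the same lists were present. Foxc1 of the fibroblast and meningeal list was at 32.5 to 63.8 CPM and Kdr of endothelium at 1.01 to 1.34 CPM. P2ry12 of microglia had 77 counts in WT and 104 in KO in all, so these cell types were not shown to be absent. The libraries numbered 1 stood apart from numbers 2 and 3 in both groups, and the sources used here do not say what the numbers stand for. Results are therefore given for all libraries, within same-numbered pairs, and without number 1. The pairing within numbers 2 and 3 is an assumption. The RNA is from bulk cultures, in which fewer cells of a type and less RNA per cell cannot be told apart.

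Ncan, Tnc and Bcan had the highest levels per kilobase, and their promoters are shown because Ncan and Tnc had the largest differences between library numbers, in opposite directions, while Bcan was nearly constant. The sequences are from RefSeq on GRCm38.p6, 300 bases each, from 250 before to 50 after the annotated start, 5′ to 3′ on the gene's strand, and capitals mark 3 motifs found on either strand, the TATA motif TATAA, the GC box GGGCGG and the octamer ATGCAAAT. Promoters were matched for 7 of the 8 members, all but Cspg5. Ncan lies at chr8:70120795-70121094 (minus strand), Tnc at chr4:64046887-64047186 (minus strand, the downstream one of the pair of starts in the table) and Bcan at chr3:88000307-88000606 (minus strand).
Ncan: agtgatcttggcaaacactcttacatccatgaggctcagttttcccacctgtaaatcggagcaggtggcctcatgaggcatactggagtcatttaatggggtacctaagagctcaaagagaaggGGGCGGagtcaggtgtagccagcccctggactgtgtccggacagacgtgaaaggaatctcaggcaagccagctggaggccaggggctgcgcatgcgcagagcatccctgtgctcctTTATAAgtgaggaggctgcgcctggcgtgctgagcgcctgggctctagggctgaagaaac
Tnc: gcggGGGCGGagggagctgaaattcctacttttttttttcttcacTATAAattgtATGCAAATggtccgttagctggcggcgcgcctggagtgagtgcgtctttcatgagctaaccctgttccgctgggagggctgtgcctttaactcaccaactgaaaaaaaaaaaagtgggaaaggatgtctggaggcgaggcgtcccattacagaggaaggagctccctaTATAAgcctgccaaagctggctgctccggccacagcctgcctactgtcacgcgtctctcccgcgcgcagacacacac
Bcan: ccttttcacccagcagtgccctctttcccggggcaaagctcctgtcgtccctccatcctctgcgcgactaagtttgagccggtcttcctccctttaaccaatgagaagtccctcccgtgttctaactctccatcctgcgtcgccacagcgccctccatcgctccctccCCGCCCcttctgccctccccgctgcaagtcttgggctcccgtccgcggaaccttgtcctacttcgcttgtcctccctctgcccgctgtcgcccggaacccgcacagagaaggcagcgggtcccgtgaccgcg
The Ncan window held 1 GGGCGG match and a TATAA match that reads on both strands, and 4 matches to the E-box motif CANNTG. The Tnc window held 2 matches to TATAA, 1 to the GC box and 1 to the octamer. Bcan had 1 match to GGGCGG, none to TATAA and 24 CpG dinucleotides, against 9 for Ncan and 16 for Tnc. Among 32851 promoters of the same length, 24.9% held the TATA motif, 35.7% the GC box, 72.3% the E-box and 1.7% the octamer. A match describes letters in these windows and is not a binding site.

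Levels of different genes were compared as CPM per kilobase of annotated exon. In the libraries numbered 2 and 3, Ncan was the most abundant member, from 263 to 344 CPM per kilobase, followed by Bcan at 137 to 143, Tnc at 44.5 to 57.7, Cspg5 at 30.6 to 36.6, Vcan at 12.6 to 17.6 and Tnr at 1.59 to 2.71. In number 1 the order at the top changed: Tnc led at 142 in WT 1 and 136 in KO 1 CPM per kilobase, with Bcan at 134 and 136 and Ncan at 96.9 and 81.1. Number 1 has 1 library in each group, so the order of Tnc and Bcan, which lay close together, has no replicate within a group. That order also depends on the length used. With the longest transcript as the length (3141 bases for Bcan, 7106 for Tnc), Bcan and not Tnc led in WT 1 and KO 1. The ranges of the first 6 members did not overlap in numbers 2 and 3, and WT and KO kept the same order of these 6 at each number. Ncan made up 52.5 to 58.2% of the members' summed per-kilobase level in numbers 2 and 3 and 20.4 to 23.3% in number 1, while Tnc made up 8.88 to 9.76% and 34.2 to 34.3%.

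**Figure D1:**
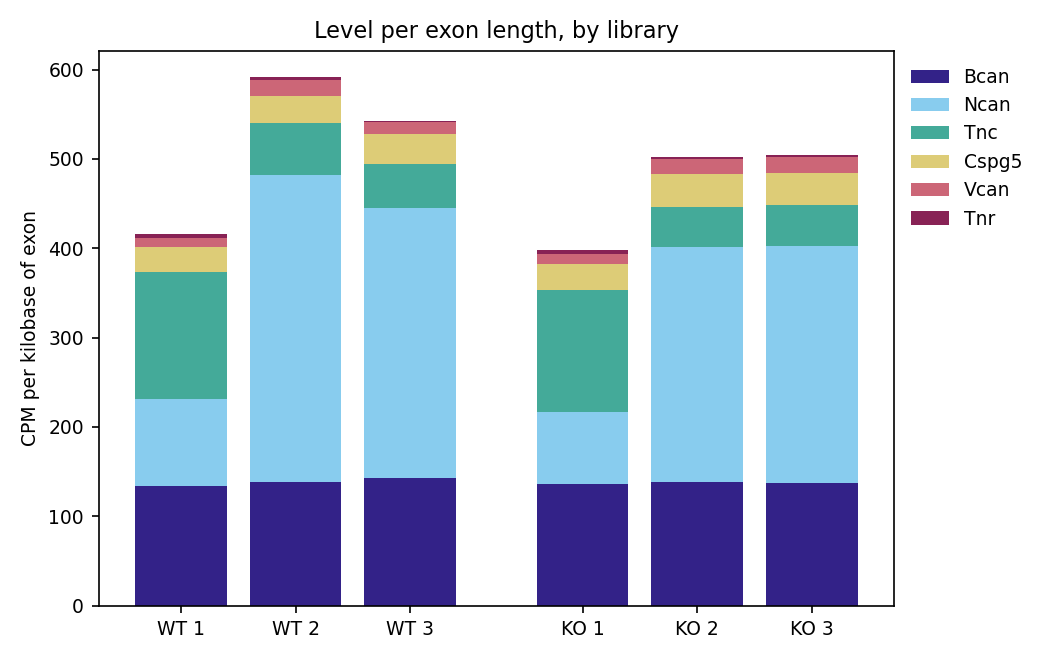
Stacked bars give the level of the 6 abundant members in each library, in CPM per kilobase of exon. Bcan filled a near-constant height of 134 to 143, while Ncan was the largest segment in numbers 2 and 3 and Tnc in number 1, in WT and KO alike. The order of Tnc and Bcan in number 1 holds for this length only.

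The lectican Ncan, which encodes neurocan, a secreted proteoglycan of the developing brain, was the one member of the 6 tested that passed the test for KO against WT in the fit that takes the replicate number as a block, and it did not pass without a block. With number 1 against the rest as the block it also passed (adjusted p = 0.0330 by edgeR). Ncan lies at chr8:70093085-70120873 (minus strand, GRCm38, as all gene positions here). It was at 697, 2476 and 2169 CPM in WT 1, 2 and 3 and at 583, 1894 and 1908 CPM in KO 1, 2 and 3. The groups overlapped, with number 1 low in both, and each KO library lay below its same-numbered WT library, at 0.837, 0.765 and 0.880 of it. The blocked fit gave a log2 fold change of −0.28 ± 0.0726 (SE), adjusted p = 0.0406 and a 95% interval of −0.44 to −0.11, by the edgeR quasi-likelihood test (Benjamini-Hochberg adjustment over all genes tested). Without the block it was −0.28 ± 0.599 (SE), with adjusted p = 0.999. The blocked call rested on few libraries: by edgeR the adjusted p was 0.221 without the pair numbered 1, 0.194 without number 2 and 0.00928 without number 3. It was 0.154 in numbers 2 and 3 alone without a block, and 0.182 by edgeR with KO 2 and KO 3, close in Ncan at 1894 and 1908 CPM, summed as 1.

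For the family as a whole, 1 of 6 tested members was called in the blocked fit, against a background of 9.79% of all genes tested in either direction and 6.46% lower in KO. Without the block 0 of 6 members were called by edgeR, against 0.0585% of all genes, and 0 by DESeq2. At an unadjusted p under 0.05 edgeR had 0 of the 6 members there, beside 795 of the 13683 genes. With the block, DESeq2 also called Ncan alone, and 2 members, Ncan and Tnc, had an unadjusted p under 0.05 by edgeR, beside 3246 of the 13683 genes. The shares of all genes given here are edgeR's, and the share called by DESeq2 was not counted, with or without the block. In 0 of 6 members did the WT and KO ranges stand clear of each other, against 11.2% of genes. The median log2 fold change of the 6 was 0.06 with the block, beside 0.01 over all genes.

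Bcan, at chr3:87987531-88000230 (minus strand), encodes brevican, a brain-specific lectican of glia. It was at 544, 562 and 581 CPM in WT 1, 2 and 3 and at 553, 563 and 557 CPM in KO 1, 2 and 3. These 6 values span a narrow band in which the groups overlap and the pairs point in different directions. The log2 fold change was −0.01 ± 0.0640 (SE) with the block, with a 95% interval of −0.15 to 0.13 and adjusted p = 0.935 in the same edgeR test. Of the 6 tested members it had the narrowest interval.

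Vcan, at chr13:89655312-89742509 (minus strand), encodes versican, the lectican that is also widespread outside the brain. Its levels were 149, 254 and 182 CPM in WT 1, 2 and 3, and in KO 1, 2 and 3 they were 160, 238 and 252 CPM. KO exceeded WT at numbers 1 and 3 and was lower at number 2, with ratios of 1.08, 1.39 and 0.935. The log2 fold change with the block was 0.16 ± 0.0957 (SE), with an interval of −0.05 to 0.37 and adjusted p = 0.355 in the edgeR test. Counts per gene do not separate the splice forms of Vcan or of Tnc, which differ in their large alternatively spliced regions.

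Acan, at chr7:79053483-79115099 (plus strand), encodes aggrecan, the lectican of cartilage and of perineuronal nets. It had 6, 8 and 10 counts in WT 1, 2 and 3 and 10, 1 and 0 counts in KO 1, 2 and 3, too few to pass the filter. KO 1 was as high as any WT library while KO 2 and KO 3 were near 0, and the 0 in KO 3 allows a level of up to 0.0892 CPM (3 counts). A fit without the filter gave Acan a log2 fold change of −0.95 ± 1.03 (SE; adjusted p = 0.999 by edgeR), so no difference was detectable at this depth.

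Hapln1, the link protein gene at chr13:89539796-89611652 (plus strand), had 4 counts in WT 1 and 0 in WT 2 and WT 3, beside 1 in KO 1, 1 in KO 2 and 0 in KO 3. It did not pass the filter, and the 0 counts allow 0.0636 to 0.0892 CPM in those libraries. No fold is given, because the other libraries lie at or close to that limit.

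Cspg5, at chr9:110243783-110262576 (plus strand), encodes neuroglycan C, a membrane-spanning chondroitin sulfate proteoglycan of neural cells. It was at 281, 308 and 347 CPM in WT 1, 2 and 3 and at 292, 369 and 365 CPM in KO 1, 2 and 3. KO was above WT in all 3 pairs, by 1.04, 1.20 and 1.05 times, as in 22.6% of all genes, and the groups overlapped. The blocked log2 fold change was 0.13 ± 0.0672 (SE), with an interval of −0.02 to 0.28 and adjusted p = 0.279 in the edgeR test.

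Tnc, at chr4:63959785-64047015 (minus strand), encodes tenascin-C, a matrix glycoprotein of neural stem cell niches. It was at 1107, 449 and 384 CPM in WT 1, 2 and 3 and at 1060, 346 and 357 CPM in KO 1, 2 and 3. Number 1 was high in both groups, and KO was below WT in all 3 pairs, at 0.958, 0.772 and 0.929. Ncan and Tnc were the 2 members lower in every pair, against 23.6% of all genes. For Tnc the blocked log2 fold change was −0.18 ± 0.0773 (SE), with an interval of −0.35 to −0.01 and adjusted p = 0.190, which did not pass in the edgeR test.

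Tnr, at chr1:159523769-159931729 (plus strand), encodes tenascin-R, a tenascin of oligodendrocyte lineage cells and some neurons that binds lecticans. Its levels were 58.2, 38.8 and 20.4 CPM in WT 1, 2 and 3, and 57.4, 30.9 and 34.9 CPM in the KO libraries in the same order. The pairs disagreed, with ratios of 0.987, 0.798 and 1.71. The blocked log2 fold change was 0.13 ± 0.192 (SE), with an interval of −0.33 to 0.60 and adjusted p = 0.739 in the edgeR test, and without the pair numbered 2 it was 0.37 with adjusted p = 0.0267. The annotation places other genes on the opposite strand within Vcan, Tnc, Tnr, Cspg5 and Hapln1, and no source used here gives the strand setting of the counting: reads of such partners cannot be told apart from those of the 5 members. Gm37731 and Gm10530 within Tnr and Mir7066 within Ncan lie on the same strand as these members, where a strand setting would not separate the reads.

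**Figure D2:**
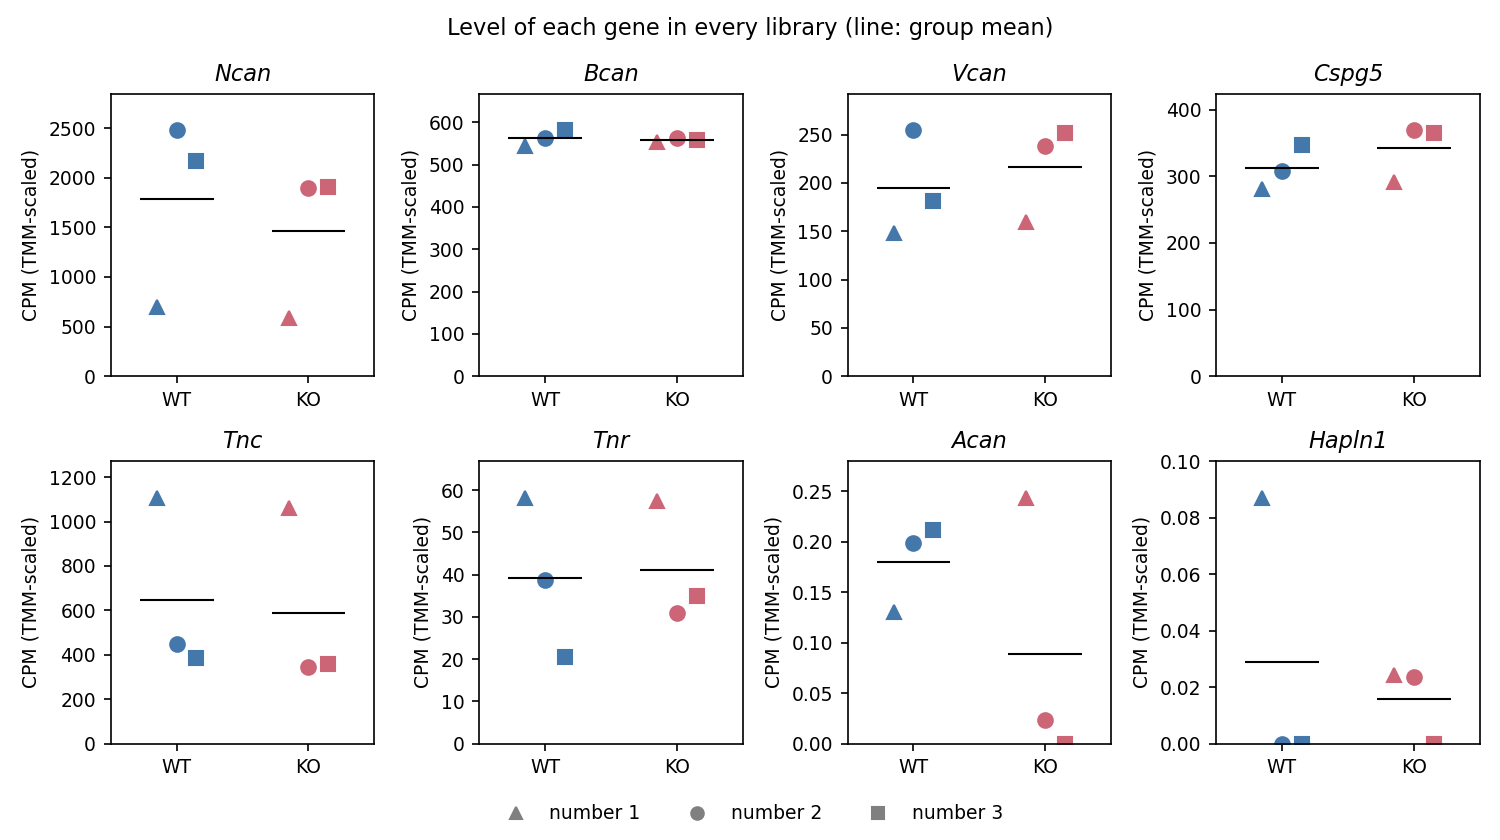
Each panel gives one member's TMM-scaled CPM in the 6 libraries, on an axis from 0, with the marker shape for the library number and a line at the group mean. Ncan was low and Tnc high in the triangles of number 1 in both groups, Bcan was flat, and Acan and Hapln1 stayed below 0.25 CPM.

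**Figure D3:**
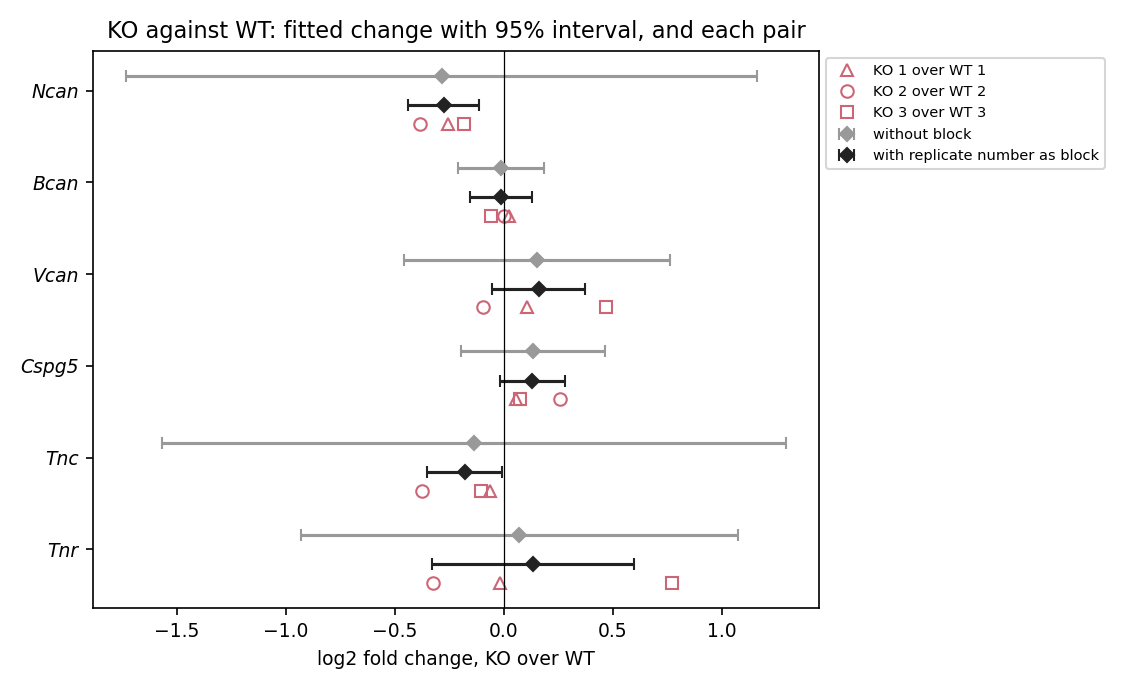
Log2 fold change of KO over WT for the 6 tested members, fitted without and with the replicate number as a block (diamonds, with 95% intervals), and the ratio in each same-numbered pair (open symbols). With the block Ncan's interval ran from −0.44 to −0.11, and the intervals of Bcan, Vcan, Cspg5 and Tnr crossed 0.

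Each lectican gene has a HAPLN gene as its neighbour in the annotation, with 0 protein-coding genes between them, and the pairs were read side by side. Hapln4, 2222 bases from Ncan on chromosome 8, encodes a link protein of perineuronal nets. Hapln4 is on the plus strand and Ncan on the minus strand, so the 2222 bases separate their 3′ ends and not their starts. It was at 10.6, 12.6 and 12.8 CPM in WT 1, 2 and 3 and at 6.59, 9.41 and 7.88 CPM in KO 1, 2 and 3, and the groups did not overlap. Its log2 fold change was −0.60 ± 0.108 (SE) with the block (adjusted p = 0.00683 in edgeR's test), and it fell in that fit as Ncan did. With KO 2 and KO 3 summed Hapln4 was also called (adjusted p = 0.0222, against a background of 3.80% of genes lower in KO), while in numbers 2 and 3 alone it was not (adjusted p = 0.0538, background 3.57%). Without the block its adjusted p was 0.556. The other neighbours were scarce: Hapln3, beside Acan, was at 0.713 ± 0.362 and 0.375 ± 0.224 CPM (SD, n = 3) and did not pass (adjusted p = 0.174 with the block in edgeR's test), and Hapln2, beside Bcan, had 7 counts in WT and 3 in KO in all. Hapln1 lies 43659 bases from Vcan, which was at 149 to 254 CPM while Hapln1 had at most 4 counts.

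For all 6 tested members the log2 difference between library numbers was larger in size than that between genotypes. With the genotype held as a covariate, 5 of 6 tested members differed between number 1 and numbers 2 and 3, with 2 higher and 3 lower in number 1. The background was high, 57.6% of all genes, with 28.2% higher and 29.4% lower in number 1. Ncan was lower in number 1, with a log2 fold change of −1.72 ± 0.0776 (adjusted p = 1.22e-06), or 3.30-fold lower. Tnc was higher by 1.50 ± 0.0762 (adjusted p = 1.98e-06), or 2.83-fold. Tnr was higher by 0.89 ± 0.198 (adjusted p = 0.00454), while Vcan was lower, −0.58 ± 0.118 (adjusted p = 0.00283), as was Cspg5, −0.28 ± 0.0666 (adjusted p = 0.00666; all log2, SE, edgeR quasi-likelihood fit, Benjamini-Hochberg adjustment).

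Bcan had a log2 fold change of −0.04 ± 0.0563 (SE) between the numbers (adjusted p = 0.521 in the same edgeR test). The shift was of like size in each genotype: number 1 held 0.300 of the mean Ncan level of numbers 2 and 3 in WT and 0.307 in KO, and 2.66 and 3.02 times the Tnc level. All 6 tested members had both number 1 libraries outside the range of the other 4, as had 62.6% of genes, and for Bcan that gap was small (544 and 553 against 557 to 581 CPM). A test of whether the genotype effect differed between number 1 and the others called 0 of the 6 members by edgeR, with 0 at an unadjusted p under 0.05, and 0% of all genes, with 472 at an unadjusted p under 0.05. That term rests on 1 library per group in number 1.

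**Figure D4:**
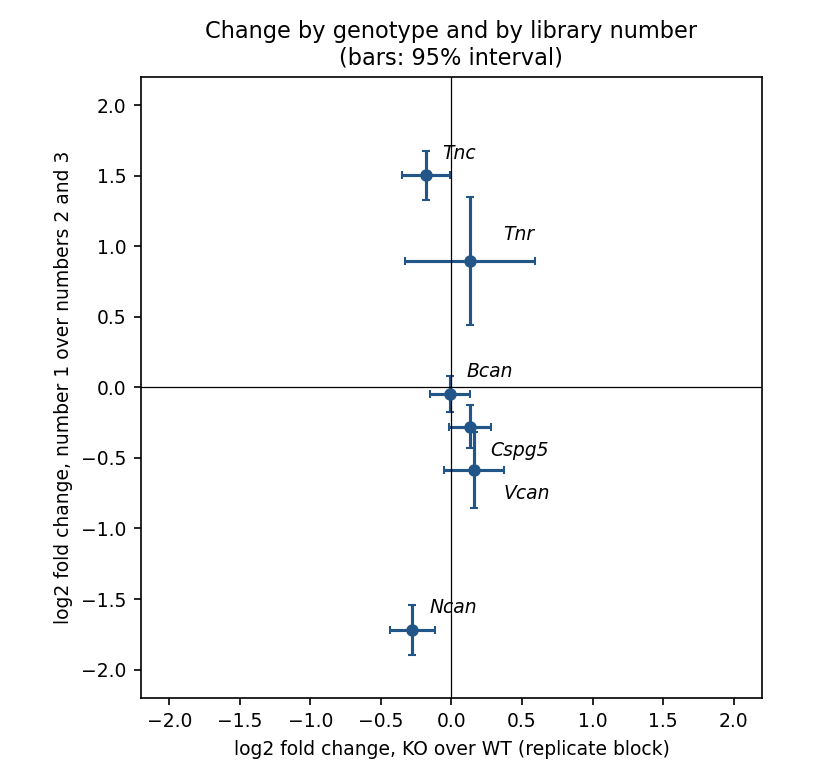
Log2 fold change by genotype (horizontal, KO over WT with the replicate block) against that by library number (vertical, number 1 over numbers 2 and 3) for the 6 tested members, with 95% intervals, on equal axes. The points spread from −1.72 to 1.50 vertically and from −0.28 to 0.16 horizontally.

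Cell type markers moved with the library number too. Of 7 tested astrocyte markers 5 were lower in number 1 and 0 higher, and the list summed to 1448 to 1619 CPM in number 1 and 2268 to 2592 CPM in the others, with Gfap at 245 and 152 counts in WT 1 and KO 1 and at least 2129 elsewhere. Of 7 oligodendrocyte precursor markers 5 were lower and 0 higher, with sums of 3499 to 3518 and 3575 to 4247 CPM, made up mostly of Olig1 and Olig2. Of 6 tested neuronal markers 3 were lower and 1 higher, with sums of 765 and 548 to 640 CPM. Most of these sums was Map2, at 710 and 734 CPM in WT 1 and KO 1 and 448 to 575 CPM elsewhere, so they do not stand for the whole list. Of the 8 radial glia and neural stem cell markers 5 were lower and 1 higher, with sums of 8039 to 8091 and 8086 to 9111 CPM. Hes5 was at 18.3 and 23.4 CPM in WT 1 and KO 1 and at 232 to 312 CPM elsewhere. Nes was at 1738 and 1748 CPM in WT 1 and KO 1 and at 687 to 807 CPM elsewhere. Their part in the shifts of Ncan and Tnc was not tested. Between genotypes, in the blocked edgeR fit, the astrocyte markers Aldh1l1, Gfap and Slc1a2 fell and Aldoc rose, the list summing to 1619 to 2592 CPM in WT and 1448 to 2288 CPM in KO. Of the oligodendrocyte precursor markers Bcas1 and Pdgfra rose and Sox10 fell, with sums of 3499 to 4247 and 3518 to 3758 CPM. Of the neuronal markers Syt1 and Stmn2 fell (sums of 548 to 765 and 635 to 765 CPM), and of the radial glia markers Prom1 fell and Hes5 rose. Of 5 tested fibroblast and meningeal markers Twist1 and Foxc1 rose and Col1a2 fell (sums of 35.6 to 46.6 and 40.2 to 65.4 CPM, nearly all of it Foxc1). Twist1 had 3, 0 and 0 counts in WT 1, 2 and 3 and passed the filter on low counts through KO alone. Col1a2 had 5, 9 and 8 counts in KO 1, 2 and 3 and passed it through WT alone. The endothelial and microglial lists had 0 calls and summed to at most 2.07 and 1.14 CPM. Without the block 1 of all these markers was called, Bcas1 (adjusted p = 0.0316 by edgeR). With KO 2 and KO 3 summed Aldoc, Hes5 and Stmn2 were not called (adjusted p = 0.128, 0.0583 and 0.0911), and in numbers 2 and 3 alone neither were these 3 nor Slc1a2 and Foxc1 (0.0528 to 0.182). The part of these markers in the change of Ncan was not tested.

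The genes that build, cut and bind these proteins were read from 8 lists, with 87 tested genes besides the members. With the block 22 of the 87 were called, 17 lower and 5 higher in KO, beside backgrounds of 6.46% lower and 3.33% higher. The lists were chosen with earlier results of these data known, so these shares cannot show an enrichment. Among those lower, Spock1, Smoc2 and Crtac1 passed the filter on low counts through WT alone. Without the block 0 were called by edgeR, with 13 at an unadjusted p under 0.05, and DESeq2 called 4 (Mmp2, Nrp1, Tmem2 and, outside the naming rule, Mdk). With KO 2 and KO 3 summed 16 were called, 12 of them lower in KO, beside 3.80% of all genes lower. In numbers 2 and 3 alone 15 were called, 11 of them lower, beside 3.57% of all genes lower. The shares of all genes higher in these 2 fits, and called by DESeq2, were not counted. All calls in the next paragraphs are from edgeR's blocked fit, with Benjamini-Hochberg adjustment over all genes.

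Among 15 other chondroitin sulfate proteoglycan genes, some of which carry the chain only part of the time, 12 were tested and 4 fell, with a list median of −0.08 (log2). Spock2, which encodes testican-2, a secreted brain proteoglycan, went from 24.5 ± 2.73 to 15.1 ± 3.49 CPM, and Nrp1, a semaphorin and VEGF co-receptor gene, from 34.4 ± 2.75 to 22.7 ± 3.05 CPM (SD, n = 3). In both the groups did not overlap, with log2 fold changes of −0.71 ± 0.0945 (adjusted p = 0.00128) and −0.60 ± 0.0820 (adjusted p = 0.00142). The other 2 that fell, Spock1 and Smoc2, were at 0.352 ± 0.115 and 0.370 ± 0.0882 CPM in WT (SD, n = 3). In KO 1, 2 and 3 Spock1 had 3, 3 and 0 counts and Smoc2 had 4, 1 and 5. Both passed the filter on low counts through WT alone, which in part fixed their direction. With KO 2 and KO 3 summed Smoc2 was no longer called (adjusted p = 0.0688), and in numbers 2 and 3 alone neither was (0.145 for Spock1 and 0.180 for Smoc2). Of the 2 remaining tenascin genes, Tnn fell from 1.30 ± 1.05 to 0.492 ± 0.365 CPM (SD, n = 3), a log2 fold change of −1.36 ± 0.301 (adjusted p = 0.0193, and 0.0572, not called, with KO 2 and KO 3 summed), and Tnxb, at 0.432 ± 0.371 and 0.251 ± 0.155 CPM, did not pass (adjusted p = 0.401). The list median was −1.03.

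Of 23 genes for making and sulfating chondroitin sulfate chains, 22 were tested, 2 rose and 2 fell, and the median was −0.08, so the list went in no common direction. Csgalnact1, whose product adds the residue that starts the chain, rose from 16.6 ± 7.84 to 22.9 ± 7.64 CPM and Dse, an epimerase gene that turns chondroitin into dermatan sulfate, from 6.84 ± 0.697 to 9.58 ± 1.61 CPM. Chst15, whose product makes the doubly sulfated E unit, fell from 4.35 ± 0.266 to 2.66 ± 0.500 CPM and Chpf2, a chain polymerising factor gene, from 71.4 ± 16.4 to 56.6 ± 6.63 CPM (SD, n = 3). Adjusted p ranged from 0.0109 to 0.0351. With KO 2 and KO 3 summed 1 of these 4 calls was left, Csgalnact1 (adjusted p = 0.0482), and Dse, Chst15 and Chpf2 were not called (0.0642, 0.0552 and 0.166). In numbers 2 and 3 alone Dse and Chst15 were not called (0.0600 and 0.0796). The groups did not overlap for Dse and Chst15, while for Csgalnact1 and Chpf2 they overlapped and each same-numbered pair had the direction of the fit.

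Of 9 tested genes of hyaluronan synthesis, turnover and binding, Tmem2, a cell-surface hyaluronidase gene, rose from 87.4 ± 11.7 to 126 ± 1.89 CPM (SD, n = 3), a log2 fold change of 0.54 ± 0.0765 (adjusted p = 0.00184), with no overlap between the groups, and the list median was 0.02. Hmmr, a hyaluronan receptor gene and the other one named by level, had a log2 fold change of 0.16 ± 0.0749 and did not pass (adjusted p = 0.225). Of 11 tested protease and inhibitor genes 2 fell and 0 rose, with a median of −0.11: Mmp2, a gelatinase gene, from 15.0 ± 1.30 to 6.35 ± 2.34 CPM (adjusted p = 0.000675), and Adamts5, an aggrecanase gene, from 9.29 ± 2.85 to 6.52 ± 1.53 CPM (adjusted p = 0.0399). Adamts5 was not called with KO 2 and KO 3 summed (adjusted p = 0.0802) or in numbers 2 and 3 alone (0.198). Of 19 tested receptors and cell-surface partners, Rtn4rl1, a Nogo receptor family gene, fell from 37.8 ± 16.1 to 26.8 ± 10.2 CPM (adjusted p = 0.00462), and the median was 0.05. Itgb1, the integrin beta-1 gene, was at 987 ± 29.9 and 945 ± 35.5 CPM, and Ptprs, a receptor phosphatase gene that binds chondroitin sulfate, at 595 ± 119 and 698 ± 172 CPM (SD, n = 3), and neither passed (adjusted p = 0.622 and 0.0867).

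Among 11 other secreted partners 6 fell and 2 rose, with a median of −0.76. Sparcl1, which encodes the secreted glycoprotein hevin, rose from 496 ± 255 to 1058 ± 501 CPM (SD, n = 3), a log2 fold change of 1.13 ± 0.0712 (adjusted p = 1.68e-05). Fbln1, a fibulin gene, also rose, with a log2 fold change of 0.41 ± 0.0759 (adjusted p = 0.00815), and is named outside the rule, after its values were seen. Reln, the reelin gene, fell from 75.4 ± 54.7 to 35.9 ± 25.0 CPM (SD, n = 3), a log2 fold change of −1.06 ± 0.0952 (adjusted p = 0.000131), with KO at 0.472, 0.407 and 0.570 of WT in the pairs. The neuronal pentraxin genes Nptx1 and Nptx2 fell, with log2 fold changes of −0.98 ± 0.101 and −1.48 ± 0.104 (adjusted p = 0.00039 and 2.96e-05). For Sparcl1, Reln, Nptx1 and Nptx2, KO lay on the same side of WT at all 3 numbers, while the ranges of the groups overlapped. The other 3 that fell were Mdk, Fn1 and Crtac1, also outside the rule. Crtac1 had 12, 6 and 5 counts in KO 1, 2 and 3 and passed the filter on low counts through WT alone.

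**Figure D5:**
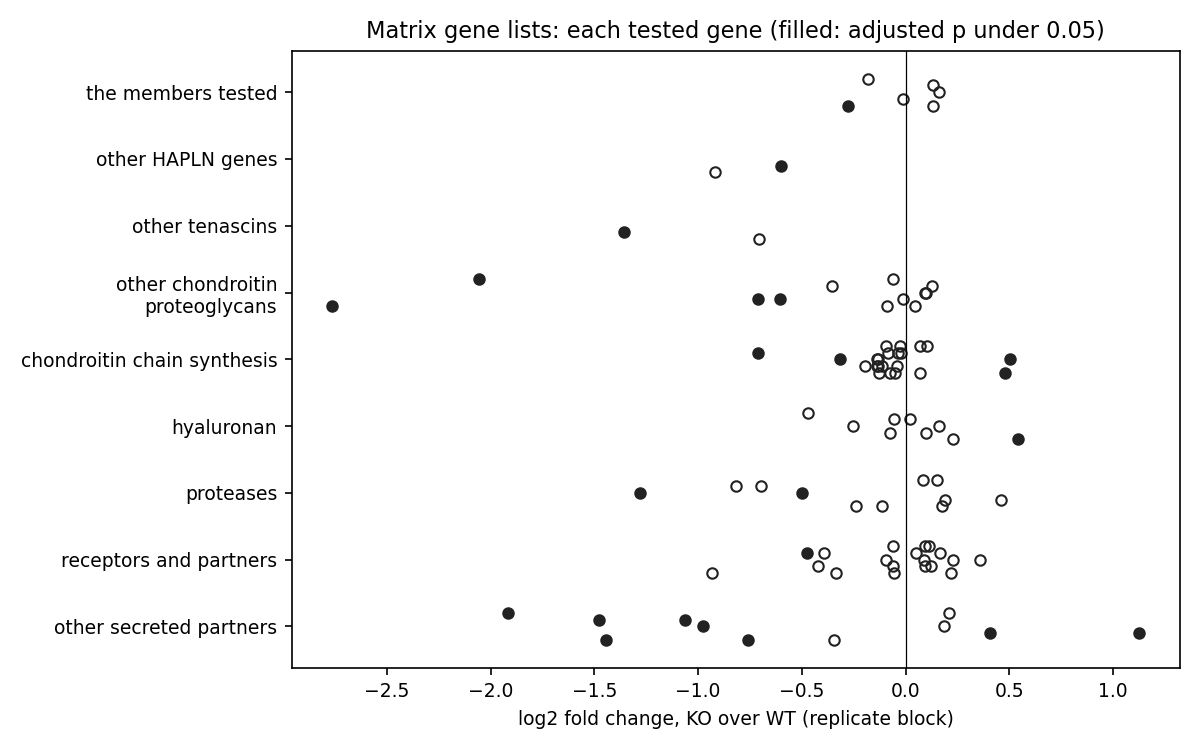
Each point is a tested gene's log2 fold change, KO over WT with the replicate block, by list, and filled points passed at adjusted p under 0.05. Filled points lie on the left for the other chondroitin proteoglycans and the proteases, and on both sides for chain synthesis and the secreted partners.

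Across the 6 libraries, the genes most like each member in log2 CPM were sought among 10670 genes whose mean reached 5 CPM. They were March8, Plec and 1700047I17Rik2 for Ncan, Iffo2, Usp16 and Elk3 for Tnc, Celsr2, Fut9 and Thsd7a for Vcan, Ctdsp1, Pvrl2 and H3f3b for Cspg5, Ccser2, Klhl20 and Aak1 for Tnr, and Eri3, Tnfrsf1a and Taf11 for Bcan, with Pearson correlations of 0.992 to 0.999. With 6 points that share the gap between number 1 and the others, such values describe these libraries and are given with no test. Among the members, Ncan and Tnc correlated at −0.94 over the 6 libraries, and at 0.92 once the mean of each set of numbers was removed. After that removal the pairs of members ranged from −0.997 (Cspg5 and Tnc) to 0.965 (Vcan and Tnr). The genotype means were not removed, so these values include the difference between KO and WT already given.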

How the data were processed

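The table deposited by the authors holds whole-number counts, not normalized, for each gene symbol in 3 WT and 3 KO libraries. RSEM, Bowtie2, Trim Galore, cutadapt and FastQC with the mm10 build are named, per the submitters' processing notes. The sources used here do not give tool versions, annotation, strand setting or how RSEM estimates were rounded, and each could move single genes. Groups and numbers come from the sample titles. Totals ranged from 33413444 to 46890314 counts, and intervals for 0 counts (3 counts of the total) cover counting error only.

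The counts as deposited were tested in R 4.3.3 with edgeR 4.0.16: filterByExpr by group (13683 of 24503 genes), TMM scaling, a robust quasi-likelihood fit, glmQLFTest, two-sided, Benjamini-Hochberg adjustment over all tested genes, called at adjusted p under 0.05. Standard errors are the log2 fold change over the square root of F, and 95% intervals use the same error. DESeq2 1.42.0, other scalings, no filter and leaving out libraries were alternatives. Because the labels name no separate cultures or embryos, p-values measure only how far these samples spread, and that spread may be technical.

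Same-numbered libraries deviated together from their group means (correlations 0.854, 0.604 and 0.580, all over the limit of 0.1), and the replicate block is given beside the unblocked fit. The labels state no pairing. Libraries of unlike number reached similar values, 0.633 (WT 2, KO 3) and 0.578 (WT 3, KO 2). Number 1 lay far from the others in both groups, so the limit could not test how numbers 2 and 3 pair. The correlations thus set number 1 apart only, and the block assumes the pairs within numbers 2 and 3. The members and lists were chosen with earlier results of these data known. Named genes are the 8 members, up to 4 called genes per list by lowest p in the blocked fit, or the 2 most abundant genes of a list where fewer than 2 were called, the HAPLN genes, and the 3 genes most like each member. Positions and exon lengths are from GENCODE vM21 (GRCm38, the assembly that mm10 names), 1-based. Cemip2 was matched under its older symbol Tmem2.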

Additional observations from a re-analysis of the deposited data

How the results depend on the processing

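For KO against WT, the replicate block and number 1 as the block both called 1 member, Ncan (−0.28 in each), as did upper-quartile scaling with the block (−0.31) and DESeq2 with the block (−0.27), against 0 without a block. The replicate block called 9.79% of all genes, and the shares in the other fits with a block, or with a pair left out, were not counted. These fits use the same libraries, so their calls of 1 member are not separate pieces of evidence. Without the pair numbered 3 Ncan was called at −0.32, and without the pair numbered 2 Tnr alone was called, at 0.37, again 1 member each. These left-out pairs were added after seeing the data. Leaving out 1 library without a block gave no call and unbalanced number 1 between the groups: the log2 fold change ranged from −0.024 to 0.0069 for Bcan, −0.66 to 0.10 for Ncan (with 0.03 without WT 2), −0.00087 to 0.39 for Vcan, 0.07 (without WT 1) to 0.24 (without KO 1) for Cspg5, −0.88 to 0.51 for Tnc and −0.25 to 0.49 for Tnr. The sign of Bcan also turned without the pair numbered 3 (0.011) and in number 1 alone (0.022), and that of Tnr turned there too (−0.17 and −0.019). Between number 1 and the others 5 members were called, and Tnr lost its call without the filter on low counts (0.90, adjusted p = 0.0882 in edgeR's test); every other call and direction there held in each alternative run. With the longest transcript as the length, the WT level of Bcan was 179 and of Cspg5 39.6 CPM per kilobase. Bcan then stood above Tnc in number 1, the reverse of the order by annotated exon length. Depth limits Acan and Hapln1 alone among the members.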

Other observations

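The wider matrix lists also differed by library number, in the fit with the genotype as a covariate. Of the 22 tested genes of chondroitin sulfate chain synthesis and sulfation, 10 were higher and 5 lower in number 1, and the list summed to 1246 to 1297 CPM in number 1 and to 937 to 968 CPM in numbers 2 and 3, with no overlap. Proteases and their inhibitor summed to 309 to 316 CPM in number 1 and 449 to 488 CPM in the others, with 5 genes higher and 4 lower of 11. Of 19 receptors and cell-surface partners 2 were higher and 9 lower. The tenascin genes Tnn and Tnxb were both lower in number 1, with log2 fold changes of −3.98 and −3.32 (adjusted p = 4.92e-05 and 0.00187 in edgeR's quasi-likelihood test), the direction opposite to Tnc and Tnr. In WT 1 and KO 1 Tnn had 4 and 3 counts and Tnxb 1 and 3, against at least 25 and 11 elsewhere. Both passed the filter on low counts through numbers 2 and 3 alone, which in part fixed their direction, and the size of these folds is uncertain. Reln was also lower (−2.83), as was Sparcl1 (−1.58). In all, 29 of the 87 genes on the lists were higher and 32 lower, beside 28.2% and 29.4% of all genes.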
